A study of Homo sapiens with 8 samples.

Results

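Nascent transcription was compared between HIF1A-/- and wild-type (WT) HCT116 cells after 90 min at 1% O2. The comparison used 4 PRO-seq libraries of the 8 in the experiment, 2 of each line, paired by the replicate number in the labels. PRO-seq is a run-on assay that maps RNA polymerase II caught in the act of transcription, so its reads report ongoing synthesis and not stored RNA. A gene was kept when its count exceeded 0.5 counts per 1000000 reads (CPM) in at least 2 of the 8 libraries. Of the 22178 autosomal genes in each deposited table, 16184 passed in the gene body, which excludes the first part of the gene, 14746 passed in the region around the transcription start site (TSS), and 14061 passed in both.

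HCT116 cells are an established line of human colorectal carcinoma. In the HIF1A-/- derivative both copies of HIF1A had been disrupted by gene targeting through homologous recombination, and whether it goes back to a single clone is not given in the sources used here. The WT hypoxia and HIF1A-/- hypoxia groups received 1% O2 for 90 min, and the WT normoxia and HIF1A-/- normoxia groups were kept in ordinary culture oxygen. All cultures carried DMSO as vehicle. Each group had 2 libraries, and the normoxia libraries are used below to show how far the lines already differed before hypoxia. Because the knockout is carried by a separately derived line, loss of HIF1A and any other difference between the lines cannot be told apart at either oxygen level. PRO-seq was done on bulk cells, so fewer transcribing cells and less transcription per cell cannot be told apart either.

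HIF1A is the oxygen-regulated subunit of the transcription factor HIF-1. In oxygen, prolyl hydroxylases of the EGLN family mark it for capture by VHL and destruction. When oxygen falls it accumulates, pairs with ARNT and binds DNA at the core letters ACGTG or GCGTG, and it is best known for switching on glucose uptake, glycolysis, lactate production, mitophagy, angiogenic factors and collagen-modifying enzymes. EPAS1 (HIF2A) is a close relative with partly shared targets.

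The 4 hypoxia libraries held 18993233 to 23622392 reads in gene bodies and 3011758 to 5966348 at the TSS. The first HIF1A-/- hypoxia library had the smallest share of its reads in TSS regions, 12.9% against 17.4% in its replicate and 20% and 20.2% in the WT libraries. Replicate libraries correlated across gene bodies at r = 0.98 on the log2 scale in both lines. Epithelial markers were transcribed at similar summed levels in both lines (1042 and 1258 CPM in WT, 1287 and 1269 CPM in HIF1A-/-). Of 9 tested, CLDN7, CDH1 and EPCAM were lower in HIF1A-/- cells and KRT8 and KRT18 were higher, and all 5 calls were lost without pairing. Blood cell markers summed to 1.43 CPM or less in every hypoxia library and none of them passed the filter. Of the endothelial markers, summing to 22 and 38.2 CPM in WT and 16.7 and 32.5 CPM in HIF1A-/- cells, PECAM1 did not pass, 3 were not called and KDR was lower (-1.51, adjusted p = 0.0175, and 0.403 without pairing, with the call also lost without either HIF1A-/- library). Fibroblast markers summed to 42.1 and 58.2 CPM in WT and 27.5 and 50.3 CPM in HIF1A-/- cells, COL1A2, DCN and LUM did not pass the filter, and none of the 3 tested was called by edgeR (2 were lower at an unadjusted p below 0.05).

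The HIF1A gene body itself was read at 129 and 164 CPM in WT hypoxia and 172 and 166 CPM in HIF1A-/- hypoxia libraries. The fitted difference was small (log2 fold change 0.20 ± 0.14 (SE), adjusted p = 0.343), and the TSS region was as close (219 and 238 CPM in WT, 228 and 243 CPM in HIF1A-/-, 0.03, adjusted p = 0.922). Polymerases still cross a targeted gene whose protein is lost, so these reads do not test the genotype.

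With the 2 lines set side by side in hypoxia, the lower genes with the smallest p in HIF1A-/- cells were LINC00673, GRIN2B, ZNF91, ADGRF1 and PDK1, and textbook HIF targets such as DDIT4, BNIP3, PFKFB4 and MIR210HG were lower too. TENM3, AOAH, ELMO1, BMP4 and DKK1 were among the 12 higher genes with the smallest p. At a false discovery rate of 10% in edgeR's quasi-likelihood test, 2448 gene bodies were lower in HIF1A-/- cells (15.1% of those tested) and 2132 were higher (13.2%). Most of these differences were modest. The median was -0.66 on the log2 scale among the lower genes and 0.50 among the higher ones, and 1146 of all 16184 genes differed by over 2-fold, 251 by over 4-fold and 42 by over 16-fold. Strong differences leaned downward, with 197 called genes over 4-fold lower and 52 over 4-fold higher. In 2100 of the lower and 1876 of the higher genes, neither HIF1A-/- library overlapped the WT libraries, against 7469 of all genes tested. The calls rest on pairing the libraries. Without it 441 genes were lower and 239 higher, each of them also among the paired calls. They also rest on each library, with 964 lower and 547 higher when the first HIF1A-/- hypoxia library was left out, 880 and 606 without the second, 1549 and 1772 without the first WT hypoxia library and 1337 and 704 without the second.

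The same contrast in the 4 normoxia libraries, which shares no library with the hypoxia contrast, gave smaller numbers, 1035 lower (6.4%) and 629 higher (3.89%), or 161 and 114 without pairing (394 to 975 and 245 to 744 with 1 library of the 8 left out). Fold changes at the 2 oxygen levels ran together across the 16184 genes (Pearson r = 0.80, Spearman rho = 0.71), and for genes over 4-fold different in hypoxia r was 0.90. Genes are not independent replicates, and both contrasts compare the same lines. Although their group means share no library, both contrasts were tested from 1 fit of all 8 libraries. That fit has a shared estimate of each gene's spread, so calls at the 2 oxygen levels are not independent. Of the genes lower in hypoxia, 911 (37.2%) were also called lower in normoxia, and 93.5% had the same sign there. Of the genes higher in hypoxia, 523 (24.5%) were also called higher in normoxia, and 95.7% had the same sign. Over all genes tested 76.9% had the same sign.

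**Figure D1:**
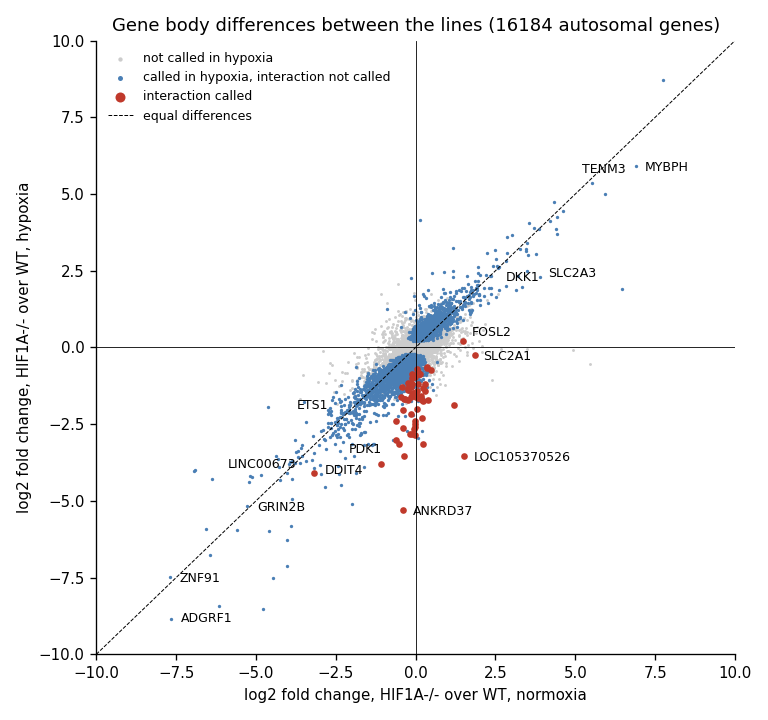
Log2 fold change of HIF1A-/- over WT gene bodies in normoxia (x axis) and in hypoxia (y axis) for 16184 autosomal genes. Blue genes were called in hypoxia, grey genes were not, and the red genes are the 63 whose difference changed with oxygen. Most blue genes run along the diagonal, whereas most red genes lie near 0 in normoxia (median -0.03) and far below 0 in hypoxia (median -1.61), with SLC2A1, FOSL2 and LINC00673 apart from the rest.

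A smaller set of genes had a more negative difference between the lines in hypoxia than in normoxia. Of these 63 genes, 33 belong to lists of genes tied to HIF, among them 9 of glucose uptake and glycolysis, 4 that act on mitochondria, 3 collagen-modifying enzymes and 3 histone demethylases, and MIR210HG, the host gene of the hypoxia microRNA miR-210, is a further member. In the test of whether the genotype difference changed with oxygen, 63 gene bodies were more negative in hypoxia (0.389%, or 9 without pairing) and 0 were more positive (0%). At an unadjusted p below 0.05, edgeR gave 534 and 351. DESeq2 gave 119 and 0 adjusted, and 411 and 141 unadjusted. The 63 became 34 or 19 without the first or second HIF1A-/- hypoxia library, 29 without the second WT hypoxia library and 18 without the second WT normoxia library, and the 0 became 18 without the first WT normoxia library. Of the 63 genes, 61 were called lower in hypoxia and 52 were called in neither direction in normoxia, a comparison that shares its libraries with the test. The test used all 8 libraries, so the order and ratios that follow come largely from the selection and are not separate support. Their values over all genes tested were not counted. In 61 of the 63 both WT hypoxia libraries lay above all 6 other libraries. The ratio of hypoxia to normoxia CPM had a median of 2.99 in WT cells (range 1.45 to 35.9) and 1.06 in HIF1A-/- cells (range 0.654 to 2.34). The gene levels by library below are in the order WT hypoxia, HIF1A-/- hypoxia, WT normoxia and HIF1A-/- normoxia wherever 4 pairs are given.

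PDK1, a kinase that holds pyruvate out of the mitochondrial citric acid cycle, lies at chr2:173421697-173463862 (gene body, GRCh37, plus strand). Its CPM values were 204 and 261, then 26.9 and 30.5, then 31.1 and 39.1, then 19.3 and 26.2. WT hypoxia lay above all other libraries, and HIF1A-/- hypoxia lay within the range of the normoxia libraries (hypoxia log2 fold change -3.02 ± 0.10, adjusted p = 2.46e-06). PDK1 was already lower in HIF1A-/- cells in normoxia (-0.63, adjusted p = 0.00859), by less than in hypoxia (change with oxygen -2.39, adjusted p = 0.0014). PFKFB4, which makes the allosteric activator of phosphofructokinase, had 476 and 549 CPM in WT hypoxia and 69.9 and 93.3 in HIF1A-/- hypoxia (-2.67 ± 0.12, adjusted p = 1.32e-05; change with oxygen -2.60, adjusted p = 0.0016). MIR210HG, the host transcript of miR-210, had 78.3 and 108, 8.07 and 13.2, 5.6 and 5.46, and 5.32 and 7.99 CPM, so that its HIF1A-/- hypoxia libraries lay above the normoxia libraries by little (-3.15 ± 0.16, adjusted p = 1.69e-05). BNIP3, a mitophagy receptor, stood at 85.7 and 95.3 CPM in WT hypoxia and between 11.9 and 15.6 CPM in the other 6 libraries (-2.84 ± 0.16, adjusted p = 3.45e-05). BHLHE40, a repressor of the basic helix-loop-helix class, differed in each replicate pair but its libraries spread widely within a group (130.0 and 271 CPM in WT, 40.8 and 83.1 in HIF1A-/-; -1.70 ± 0.11, adjusted p = 4.83e-05). Unpaired, its adjusted p was 0.123. In normoxia BHLHE40 had 16.9 and 27.4 CPM in WT and 17.3 and 35.6 in HIF1A-/- cells. It thus rose in hypoxia in HIF1A-/- cells too, with a ratio of 2.34, the highest of the 63 genes in that line.

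The HIF core letters were looked for in the promoters of all genes tested. The 250 bases before each TSS were read from GRCh37 and searched on both strands for ACGTG and GCGTG. The deposited TSS was used whether or not its region passed the filter. It passed in 14061 of all 16184 genes, in 1962 of the 2448 lower and in 2018 of the 2132 higher ones. Of the 63 genes whose difference changed with oxygen it passed in 61. Some windows thus lie at starts with few or no reads, and unequally across the classes compared. One or both were present in 40 of the 61 promoters of genes called lower whose difference changed with oxygen (65.6%), in 49.8% of the 2387 other lower genes, in 53.8% of the 2132 higher genes and in 51.9% of all 16184. ACGTG, with or without GCGTG, was in 42.6%, 20.4%, 19.3% and 20.5% in the same order. The letters CACGTG, an E-box that contains ACGTG on both strands and is read by many other factors, were in 21.3%, 5.99%, 6.89% and 7.35%. Median GC content was 66.4%, 60.4%, 67.2% and 62.4% in the same order, highest in the higher genes. All the letters searched for contain CG, and the median number of CG dinucleotides was 22, 15, 21 and 17, highest in the 61 promoters. How far base composition accounts for these shares was not tested. A match is a description of letters and not evidence of binding.

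The 5 sequences below are the 250 bases upstream of the TSS, 5′ to 3′ on the gene's own strand, from GRCh37. They are shown because they span the range found among the genes with the strongest change, from several matches to none. Capitals mark ACGTG or GCGTG, or their reverse complements CACGT and CACGC, and overlapping matches run together as CACGTG. PDK1 is at chr2:173420446-173420695 (plus strand), BNIP3 at chr10:133795518-133795767 (minus), FAM162A at chr3:122102772-122103021 (plus), DDIT4 at chr10:74033426-74033675 (plus) and P4HA1 at chr10:74856733-74856982 (minus).
PDK1: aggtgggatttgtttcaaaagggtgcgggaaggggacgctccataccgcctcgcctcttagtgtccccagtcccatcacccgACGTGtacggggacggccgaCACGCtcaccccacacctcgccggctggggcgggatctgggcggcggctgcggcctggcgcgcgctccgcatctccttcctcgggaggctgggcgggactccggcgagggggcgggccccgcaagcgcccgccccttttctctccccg
BNIP3: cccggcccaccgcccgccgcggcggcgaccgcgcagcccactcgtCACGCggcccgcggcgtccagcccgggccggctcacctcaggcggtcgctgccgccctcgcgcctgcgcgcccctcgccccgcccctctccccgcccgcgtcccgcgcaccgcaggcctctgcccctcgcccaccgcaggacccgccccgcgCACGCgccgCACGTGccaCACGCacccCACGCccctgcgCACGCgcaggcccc
FAM162A: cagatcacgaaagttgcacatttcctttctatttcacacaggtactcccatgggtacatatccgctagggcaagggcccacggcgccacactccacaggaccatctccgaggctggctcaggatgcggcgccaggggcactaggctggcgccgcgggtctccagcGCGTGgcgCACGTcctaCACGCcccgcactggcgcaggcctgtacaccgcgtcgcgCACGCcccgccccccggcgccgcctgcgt
DDIT4: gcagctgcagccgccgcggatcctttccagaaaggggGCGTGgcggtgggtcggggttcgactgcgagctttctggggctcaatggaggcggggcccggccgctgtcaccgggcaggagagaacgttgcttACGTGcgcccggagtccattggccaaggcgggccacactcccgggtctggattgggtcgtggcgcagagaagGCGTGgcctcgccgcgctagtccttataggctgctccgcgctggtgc
P4HA1: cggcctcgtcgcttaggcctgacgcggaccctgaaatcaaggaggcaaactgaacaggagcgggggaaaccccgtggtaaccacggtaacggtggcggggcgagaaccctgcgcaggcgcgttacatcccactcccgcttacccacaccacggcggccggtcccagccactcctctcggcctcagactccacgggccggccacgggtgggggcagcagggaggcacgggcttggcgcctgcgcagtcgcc

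BNIP3 has 7 matches, FAM162A 4, DDIT4 3 and PDK1 2, whereas P4HA1 has 0 in this window although its gene body was among the strongest responders. P4HA1, the catalytic subunit of collagen prolyl hydroxylase, had 547 and 706 CPM in WT hypoxia, 124 and 133 in HIF1A-/- hypoxia, 139 and 105 in WT normoxia and 148 and 131 in HIF1A-/- normoxia. FAM162A, a mitochondrial protein known as a hypoxia-induced death factor, had 133 and 202 CPM in WT hypoxia and 24.2 and 23 in HIF1A-/- hypoxia. For both genes the 3 other groups lay close together below WT hypoxia, and the change with oxygen was -2.50 (adjusted p = 0.00521) and -2.65 (adjusted p = 0.00513).

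Lists of genes by role were written from textbook knowledge, with earlier results of these data known, and are described here by counts only. Across the 11 lists tied to HIF, 67 of the 128 genes tested were lower in HIF1A-/- cells in hypoxia (52.3%, against 15.1% of all genes) and 8 were higher (6.25%, against 13.2%). Their median log2 fold change was -0.42 in hypoxia and -0.02 in normoxia, where 14 were lower and 7 higher. The change with oxygen was called in 33 (25.8%, against 0.389% of all genes). Without pairing 43 were lower and 1 was higher. Where 0 members of one of these lists are given as higher below, edgeR also gave 0 at an unadjusted p below 0.05.

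Glycolysis was lower along nearly its whole length. Of 20 genes tested, 16 were lower and 1 was higher, with a median of -0.90 in hypoxia and 0.05 in normoxia, and 12 and 1 were called without pairing. GPI, the isomerase that follows hexokinase, had 829.7 and 1023 CPM in WT and 207 and 138 in HIF1A-/- cells (-2.49 ± 0.22, adjusted p = 0.00031). LDHA, which turns pyruvate into lactate, had 474 and 541 CPM in WT and 178 and 158 in HIF1A-/- cells, where the normoxia libraries of both lines ran from 148 to 168 CPM (-1.61 ± 0.12, adjusted p = 0.000127). PGAM1, a phosphoglycerate mutase, had 77.6 and 81.9 CPM against 28.3 and 26.7 (-1.55, adjusted p = 0.000189). ENO1, or enolase 1, had 753 and 999.7 CPM against 369 and 281 (-1.45, adjusted p = 0.00235), and its change with oxygen of -1.24 was not called (adjusted p = 0.272). HK1, a hexokinase, had 127 and 151 CPM against 68.6 and 84.0 (-0.88, adjusted p = 0.00143). Neither line's libraries overlapped the other's in any of these 5 genes. HK2, named after its values were seen, was lower by more than HK1, with 538 and 726 CPM in WT and 104 and 59.2 in HIF1A-/- cells (-3.01 ± 0.31, adjusted p = 0.000653). GPI, LDHA and PGAM1 also passed the test of change with oxygen and HK1 did not (adjusted p = 0.109). Several glycolytic genes have processed pseudogenes of near-identical sequence, and reads lost to them by the mapping filter were not counted.

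The glucose transporters did not follow the enzymes. SLC2A1 (GLUT1) had 406 and 562 CPM in WT hypoxia and 474 and 346 in HIF1A-/- hypoxia, so the lines overlapped (-0.24 ± 0.24, adjusted p = 0.514). In normoxia it had 95.9 and 137 CPM in WT and 450.0 and 381 in HIF1A-/- cells, well above WT (1.84, adjusted p = 0.00358). The change with oxygen was called (-2.08, adjusted p = 0.0697), although the gene body difference in hypoxia itself was not. At the TSS, SLC2A1 was lower in HIF1A-/- hypoxia, with 188 and 167 CPM in WT and 148 and 119 in HIF1A-/- cells (-0.44, adjusted p = 0.0473). FOSL2, an AP-1 subunit picked out here because it was the only other gene of the 63 with no gene body call in hypoxia, had the same shape, with 117 and 137 CPM in WT hypoxia, 146 and 149 in HIF1A-/- hypoxia, 45.4 and 40.7 in WT normoxia and 116 and 126 in HIF1A-/- normoxia. SLC2A3 (GLUT3) was higher in HIF1A-/- cells at both oxygen levels, with 4.53 and 14.5, 47.6 and 44.7, 1.98 and 2.76, and 37.5 and 30.9 CPM (2.31 ± 0.40 in hypoxia, adjusted p = 0.00653, and 3.89 in normoxia). SLC2A3 has a close copy, SLC2A14, so its counts depend on how reads were shared between them.

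In lactate export and pH control, 3 of 8 genes were lower and 2 higher. The carbonic anhydrase CA9, a standard hypoxia marker, was barely transcribed in HCT116 cells, with 1.21 and 1.19 CPM in WT hypoxia and 3 reads in all in the HIF1A-/- hypoxia libraries, which gave a ratio of 16.2 (95% interval for counting error 5.24 to 81.1; adjusted p = 0.00475). CA12 had 13.2 and 11.9 CPM against 3.44 and 6.07 (-1.47, adjusted p = 0.0116, lost without pairing or without the first HIF1A-/- hypoxia library). The calls for the lactate exporter SLC16A3 and its chaperone BSG were also lost without pairing.

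The list of HIF targets that act on mitochondria had the lowest median of any list, -2.30 in hypoxia against -0.07 in normoxia. Its members were listed as HIF targets, and 6 of 8 were lower, 0 higher and 4 lower without pairing. Besides PDK1, BNIP3 and FAM162A, the mitophagy receptor BNIP3L was lower, with 39.9 and 72.4 CPM in WT and 5.16 and 11.1 in HIF1A-/- cells (-2.83 ± 0.19, adjusted p = 7.79e-05). HIGD1A and NDUFA4L2 were not called (0.18, adjusted p = 0.235, and 0.41, adjusted p = 0.269). The respiratory chain itself was close to the background, with 5 of 47 nuclear genes lower and 3 higher (median -0.04).

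Among the genes that sense oxygen, the 2 prolyl hydroxylases known to be HIF targets were lower. EGLN1 had 304 and 382 CPM in WT and 108 and 109.6 in HIF1A-/- cells (-1.67 ± 0.13, adjusted p = 0.000167), and EGLN3 had 53 and 85.4 CPM against 11.6 and 19.2 (-2.18 ± 0.17, adjusted p = 0.000175). In both genes HIF1A-/- hypoxia lay near normoxia, and the change with oxygen was called (adjusted p = 0.0283 and 0.0189). The partner ARNT, the ubiquitin ligase subunit VHL and the asparaginyl hydroxylase HIF1AN each differed by 0.14 and were not called. EPAS1 was lower at both oxygen levels, with 59.8 and 76.5 CPM in WT and 26.3 and 43.3 in HIF1A-/- hypoxia (-1.01 ± 0.16, adjusted p = 0.00496) and -0.80 in normoxia (adjusted p = 0.0242). Unpaired, the adjusted p in hypoxia was 0.161.

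In the list of angiogenic and vascular factors, which also holds genes such as NDRG1 and ANKRD37, 7 of 13 were lower and 0 higher. The median was -0.96 in hypoxia and -0.03 in normoxia. VEGFA, the main angiogenic growth factor, had 112 and 125 CPM in WT and 37.0 and 40.5 in HIF1A-/- cells (-1.63 ± 0.11, adjusted p = 6.56e-05), and a smaller difference in normoxia (-0.45, adjusted p = 0.0459). NDRG1, a stress-responsive gene, had 342 and 799 CPM against 67.2 and 116 (-2.59 ± 0.15, adjusted p = 4.12e-05). STC2, a secreted glycoprotein, had 345 and 396 CPM against 141 and 106 (-1.62 ± 0.16, adjusted p = 0.000633). ANKRD37 showed the widest gap of the list, with 26.5 and 87.6 CPM against 1.08 and 1.63 (-5.29 ± 0.41, adjusted p = 0.000146), and its normoxia libraries held 1.46 to 2.04 CPM in either line.

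Of the collagen enzymes, 5 of 11 were lower and 0 higher. Next to P4HA1, the lysyl hydroxylase PLOD2 had 106 and 121 CPM against 22.8 and 33.4 (-2.05 ± 0.14, adjusted p = 7.4e-05) and PLOD1 had 414 and 389 CPM against 157 and 146 (-1.42 ± 0.17, adjusted p = 0.00123). P4HA2 was called too (-1.38, adjusted p = 0.0135), but not once the first HIF1A-/- hypoxia library was left out. The related subunits P4HB, PLOD3, LOXL1 and LOXL3 were not called and differed by -0.13, -0.09, 0.21 and -0.09.

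Of 16 Jumonji histone demethylases, which need oxygen for their reaction, 5 were lower and 1 was higher. KDM3A had 253 and 342 CPM in WT and 65.0 and 83.3 in HIF1A-/- cells (-2.01 ± 0.10, adjusted p = 1.91e-05), KDM4B had 558 and 588 against 238 and 266 (-1.20 ± 0.09, adjusted p = 0.000114), and KDM4C had 73.0 and 103 against 32.4 and 35 (-1.39 ± 0.14, adjusted p = 0.000653). The KDM2A and KDM2B calls, in opposite directions, were lost without pairing.

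DDIT4 led the inhibitors of mTORC1 signalling, of which 3 of 10 were lower and 1 was higher. It had 140.0 and 208 CPM in WT and 7.82 and 18.1 in HIF1A-/- hypoxia (-3.81 ± 0.18, adjusted p = 1.6e-05). It was already lower in HIF1A-/- cells in normoxia (-1.08, adjusted p = 0.0114), by less than in hypoxia (change with oxygen -2.73, adjusted p = 0.00521). FOXO3 was lower by -0.59 (adjusted p = 0.00444). DEPTOR was lower by -1.45 (adjusted p = 0.00222), a call lost without pairing.

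Transcription factors known to respond to HIF were lower in 7 of 13 cases and higher in 0, along 2 different patterns. MXI1, an antagonist of MYC, had 96.9 and 144 CPM in WT hypoxia and 41.8 and 55.6 in HIF1A-/- hypoxia (-1.31 ± 0.10, adjusted p = 0.000127), with -0.22 in normoxia (adjusted p = 0.242). ELF3 and ETS1, both of the ETS family, were lower to a similar degree at both oxygen levels. ELF3 had 97.1 and 182, 14.3 and 29.4, 35.6 and 61.1, and 6.96 and 14.1 CPM (-2.70 in hypoxia, adjusted p = 4.95e-06, and -2.23 in normoxia, adjusted p = 1.61e-05). ETS1 had 33.5 and 46.3 CPM in WT hypoxia and 8.80 and 8.98 in HIF1A-/- hypoxia, with 23.8 and 30.8 and then 4.59 and 6.86 in normoxia. At its deposited TSS no read was counted in any hypoxia library. Neither gene passed the test of change with oxygen (adjusted p = 0.649 and 0.984).

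Glycogen and lipid storage genes were lower in 8 of 10 cases and higher in 2, and lower in 3 and higher in 0 without pairing. The branching enzyme GBE1 (-1.28, adjusted p = 0.000676), the glycogen phosphatase subunit PPP1R3B (-1.5, adjusted p = 0.000142) and the lipid droplet protein HILPDA (25.7 and 45.1 CPM against 9.10 and 6.96; -2.18, adjusted p = 0.00419) led the list. For iron and haem, 4 of 10 were lower, among them the transferrin receptor TFRC (-0.61), and HMOX1 was higher (0.72), but 0 were called without pairing (edgeR, where the paired fit at an unadjusted p below 0.05 also gave 4 and 1).

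**Figure D2:**
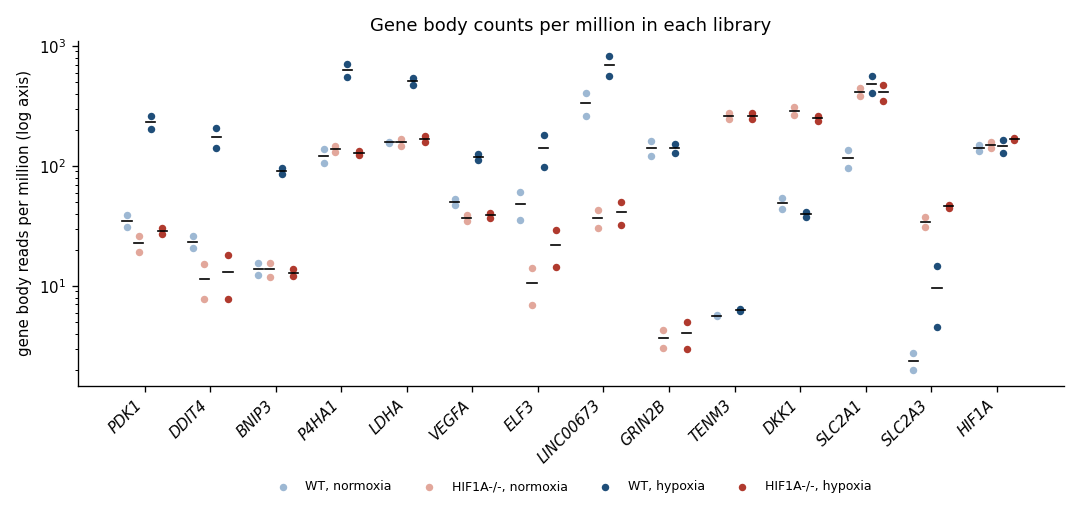
Gene body CPM (log axis) in each of the 8 libraries for 14 genes, with the 4 groups side by side and a bar at each group mean. PDK1, DDIT4, BNIP3, P4HA1, LDHA and VEGFA are highest in WT hypoxia, GRIN2B, TENM3 and DKK1 separate the lines at both oxygen levels, and SLC2A1 is low only in WT normoxia.

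Many of the largest differences were outside these lists and present at both oxygen levels. LINC00673, a long noncoding RNA at chr17:70399538-70587944 (minus strand), had 557 and 819.6 CPM in WT and 32.4 and 50.1 in HIF1A-/- hypoxia (-4.08 ± 0.10, adjusted p = 4.5e-07), with -3.17 in normoxia and a called change with oxygen (-0.91, adjusted p = 0.0291). GRIN2B, a glutamate receptor subunit of neurons at chr12:13714409-14132021 (minus strand), had 128 and 151 CPM against 3.00 and 5.03 in hypoxia and 121 and 162 against 3.05 and 4.30 in normoxia (-5.15 ± 0.13, adjusted p = 5.64e-07). ZNF91, a repressor of retroelements, had 32.4 and 40.0 CPM against 0.0984 and 0.296 (-7.50 ± 0.25, adjusted p = 2.46e-06). ADGRF1, an adhesion receptor, had 21.5 and 52.4 CPM in WT and 3 reads in all in HIF1A-/- hypoxia, a ratio of 523 (95% interval for counting error 179 to 2538). LOC100506272 (-5.99), SAMD3 (-3.73), ZNF608 (-4.31), ZNF704 (-2.47), ARMC4 (-2.45) and SNTB1 (-3.91) completed the 12 lower genes with the smallest p, of which PDK1 and ELF3 also belong to the lists. LOC100506272 had no read at the deposited TSS in any hypoxia library, and GRIN2B, ZNF608 and ZNF704 held 2.18 CPM or less there. Except for LINC00673 and PDK1, none of the 12 passed the test of change with oxygen.

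In the other direction, TENM3, an adhesion protein of the teneurin family at chr4:183165584-183724177 (plus strand), had 6.21 and 6.43 CPM in WT hypoxia and 244 and 276 in HIF1A-/- hypoxia, and 5.6 and 5.68 against 247 and 278 in normoxia (5.35 ± 0.10 in hypoxia, adjusted p = 1.2e-07). AOAH, an enzyme that detoxifies lipopolysaccharide, had 5.16 and 6.86 CPM against 74.8 and 81.7, and ELMO1, an engulfment adaptor that lies next to it on chromosome 7, had 5.16 and 6.90 CPM against 54.5 and 56.6 (3.69 and 3.20). Neither AOAH nor ELMO1 had a read at the deposited TSS in any hypoxia library, so that start was not shown to be in use. DKK1, a secreted Wnt antagonist at chr10:54075041-54077417 (plus strand), had 37.8 and 40.9 CPM against 262 and 239 (2.66 ± 0.15, adjusted p = 3.02e-05). BMP4, a TGF-beta family ligand, had 53.4 and 44.8 CPM against 213 and 202 (2.07 ± 0.10, adjusted p = 1.6e-05). LOC340512 (4.24), CCDC144NL-AS1 (4.46), MYBPH (5.90), DHRS2 (2.32), IFI6 (3.07), MTSS1 (1.71) and MDGA1 (1.86) made up the rest of the 12 with the smallest p. All 12 were called higher in normoxia too, and none passed the test of change with oxygen.

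A few genes had few or no reads in 1 of the lines. In 11 of the higher and 38 of the lower genes, one line had at most 3 reads in either hypoxia library. The filter needed only 2 of the 8 libraries, so such a gene could pass through the line where it is high alone. LOC90768 and the genes named below with no HIF1A-/- hypoxia reads passed in that way. These counts thus come partly from the selection. Both WT hypoxia libraries were at 0 for LOC90768, which was at least 18.2-fold higher in HIF1A-/- cells against a floor of 3 reads over the group and lies beside TENM3. Both HIF1A-/- hypoxia libraries were at 0 in 7 genes, led by ZNF625-ZNF20 (at least 15.1-fold lower), C2CD4D (at least 14.1-fold lower), SH3PXD2A-AS1 (at least 7.78-fold lower), VAX1 (at least 5.72-fold lower) and FLRT3 (at least 4.45-fold lower). MYBPH had 4 reads in WT hypoxia, a ratio of 63.2 (95% interval for counting error 24.4 to 234), and its neighbour CHI3L1 a ratio of 36.2 (9.65 to 305). CASC18, DLK1 and ASB10 were also among the 6 higher genes of this kind with the largest fold change, and all 3 calls were lost without pairing.

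Interferon-stimulated and antigen presentation genes were the list that rose most often in HIF1A-/- cells. Of 24 tested, 16 were higher (66.7%, against 13.2% of all genes) and 0 lower (edgeR, 0 lower also at an unadjusted p below 0.05). The median was 0.63 in hypoxia and 0.52 in normoxia, where 8 were higher, against 3.89% of all genes. Without pairing 6 were higher, and 8, 8 and 7 without the first or second HIF1A-/- or the second WT hypoxia library. IRF7, a transcription factor of the pathway, had 3.69 and 4.95 CPM in WT and 11.2 and 16.8 in HIF1A-/- cells (1.67 ± 0.18, adjusted p = 0.000759). IFIT1, an RNA-binding antiviral protein, had 2.53 and 3.43 CPM against 14.4 and 23.7 (2.65 ± 0.18, adjusted p = 7.79e-05). OAS1, an RNA sensor, had 0.369 and 0.254 CPM against 2.51 and 4.09 (3.40 ± 0.40, adjusted p = 0.00126). The libraries did not overlap for any of these 3, and none passed the test of change with oxygen.

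Wnt targets and feedback genes were higher in 6 of 16 cases (37.5%, against 13.2% of all genes) and lower in 0 (edgeR, 7 and 0 at an unadjusted p below 0.05), and 1 was higher without pairing. DKK1 was the strongest. CCND1, or cyclin D1, had 278 and 270.4 CPM against 1129 and 554, so that the HIF1A-/- libraries lay further apart than the lower of them lay from WT (1.52 ± 0.33, adjusted p = 0.0163, and 0.128 without pairing). The call was also lost without the first HIF1A-/- or the first WT hypoxia library. Mesenchymal and adhesion genes split, with 7 of 17 higher (41.2%) and 3 lower (17.6%). The higher ones were led by the integrin subunit ITGB4 (129 and 204 CPM against 424 and 554; 1.57 ± 0.14, adjusted p = 0.000303) and the transcription factor SNAI1 (0.88, adjusted p = 0.00693). Among the lower ones was the hyaluronan receptor CD44 (380.5 and 418 CPM against 243 and 197; -0.87, adjusted p = 0.00597). MYC-induced genes were mostly not called, with 1 of 24 lower, LDHA, and 1 higher. DNA replication genes had 1 of 32 lower and 2 higher. Over all genes 15.1% were lower and 13.2% higher, and several of the remaining lists lay near these shares. p53 targets had 1 of 17 lower (5.88%) and 4 higher (23.5%), ER chaperones 2 of 16 (12.5%) and 3 (18.8%), and integrated stress response genes 2 of 13 and 2 (15.4% each). NF-kappaB genes had 3 of 14 lower and 3 higher (21.4% each), AP-1 and immediate early genes 1 of 20 (5%) and 3 (15%), and cholesterol synthesis genes 4 of 20 (20%) and 2 (10%). Within these lists ICAM1, an adhesion molecule, was lower by -2.09 (adjusted p = 0.00169), and TNIP1, an inhibitor of NF-kappaB signalling, by -0.87 (adjusted p = 0.000584).

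At the TSS fewer differences were called than in the gene bodies. In hypoxia 1119 TSS regions were higher in HIF1A-/- cells (7.59%) and 1026 lower (6.96%), or 67 and 90 without pairing. Leaving out 1 of the 4 hypoxia libraries left 227 to 551 higher and 175 to 543 lower. TSS and gene body fold changes correlated across 14061 genes (r = 0.52). The genes below were chosen by their gene body counts, so their sizes at the TSS and in the body are not a like comparison. Of the 1962 genes lower in the body and tested at the TSS, 492 (25.1%) were called lower there and 31 higher, with a median of -0.32. Of the 2018 higher ones, 443 (22%) were called higher and 15 lower, with a median of 0.21. ELF3 (571 and 717 CPM against 69.7 and 130; -2.74, adjusted p = 1.09e-12), ZNF91 (-7.93), ADGRF1 (-6.86) and ZNF675 (-5.70) were the lower TSS regions with the smallest p. ITGB4 (19.8 and 22.6 CPM against 103 and 92.1; 2.18, adjusted p = 2.82e-08), SOAT2 (3.10), DHRS2 (2.20) and KLF2 (1.43) were the higher ones.

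The pausing index divides read density at the TSS by that in the gene body, so a higher index means that a larger part of the polymerases on a gene sat near its start. It shares its gene body reads with the comparison above. In hypoxia the index was higher in HIF1A-/- cells at 525 genes (3.73%) and lower at 406 (2.89%), or 67 and 34 without pairing and 43 to 149 and 23 to 121 with 1 of the 4 hypoxia libraries left out. Of the genes lower in the body 260 had a higher index and 16 a lower one, and of the genes higher in the body 253 had a lower index and 14 a higher one. The first HIF1A-/- hypoxia library, with its smaller TSS share, enters these values, and each table was scaled on its own.

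The genes whose difference changed with oxygen were likewise chosen by their gene body counts, which also enter the index. Over the 61 of them tested at both, the median TSS difference was -0.53, 34 were called lower at the TSS, and the index was higher in HIF1A-/- cells in 59, of which 44 were called. P4HA1 had 309 and 352 CPM at the TSS in WT and 307 and 279 in HIF1A-/- cells, a difference that was not called (-0.20, adjusted p = 0.39), and its pausing index rose from 91.0 and 80.4 to 400 and 339 (2.1 ± 0.18, adjusted p = 6.44e-06). FAM162A fell at the TSS by 0.66 and its index rose from 60.7 and 41.2 to 206 and 241 (2.15 ± 0.19, adjusted p = 6.78e-06). PDK1 fell at the TSS by 1.01, from 132 and 149 to 66.4 and 75.3 CPM, and its index rose from 49.6 and 43.7 to 189 and 189 (2.02 ± 0.17, adjusted p = 6.44e-06). VEGFA and BNIP3 were not called at the TSS (0.12, adjusted p = 0.76, and -0.41, adjusted p = 0.29), and their indices were higher by 1.73 and 2.40. LINC00673 had the smallest p of all, with an index of 887 and 599 in WT and 6897 and 5233 in HIF1A-/- cells (3.04 ± 0.20, adjusted p = 1.93e-07). Not all lower genes followed, since ELF3 was lower at both ends alike (index -0.04, adjusted p = 0.922).

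The reverse was seen at genes higher in HIF1A-/- cells. The index of DKK1 fell from 30.4 and 28.9 to 10.9 and 10.5 (-1.48 ± 0.17, adjusted p = 0.000134) and that of BMP4 from 43.4 and 45.2 to 15.6 and 18 (-1.40 ± 0.17, adjusted p = 0.000139). SAMD5 (-1.56, adjusted p = 4.72e-05) and IFI6 (-2.15, adjusted p = 0.000128) behaved likewise.

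**Figure D3:**
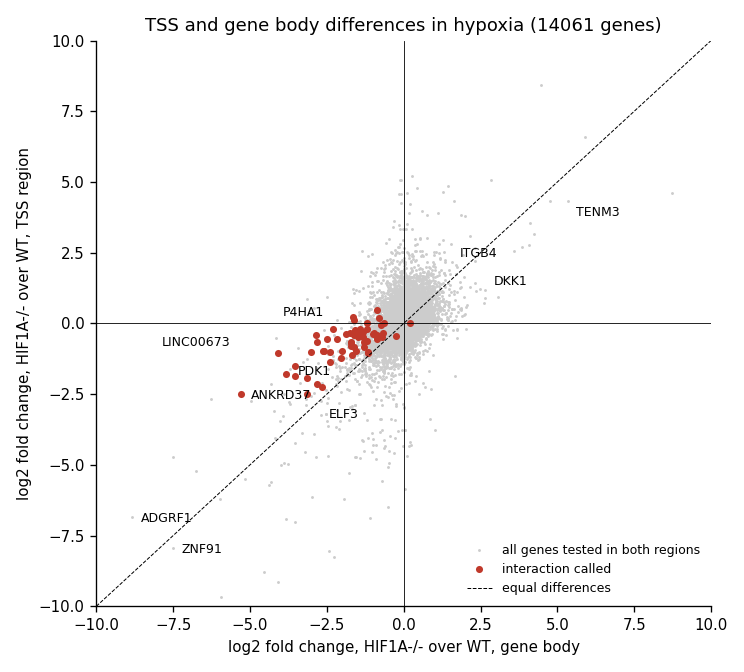
Log2 fold change of HIF1A-/- over WT in hypoxia in the gene body (x axis) and at the TSS (y axis) for 14061 autosomal genes tested in both. The red genes, whose body difference changed with oxygen, lie to the left and mostly above the diagonal, with a median of -0.53 at the TSS, whereas ELF3 and ZNF91 lie close to the diagonal.

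Some neighbouring genes shared a direction, as seen after the values were known. Antisense to HIF1A, the uncharacterised LOC105370526 (chr14:62182275-62216814, minus strand) had 68.8 and 123 CPM in WT hypoxia, 9.15 and 7.70 in HIF1A-/- hypoxia, 2.85 and 2.48 in WT normoxia and 10.6 and 4.78 in HIF1A-/- normoxia (-3.53 in hypoxia; change with oxygen -5.05, adjusted p = 0.0168). It lies largely within the HIF1A gene, which had 134 and 150.1 CPM in WT normoxia. Around ANKRD37 on chromosome 4, LRP2BP (-2.39), UFSP2 (-0.97), C4orf47 (-3.15), CCDC110 (-0.81) and SNX25 (-0.68) were lower, and SLC25A4 (-0.22), CFAP97 (-0.34) and PDLIM3 (-0.08) were not called. ANKRD37 and UFSP2 also overlap on opposite strands. Whether counting used strand is not given in the sources used here, so reads of the overlapping genes of either pair cannot be told apart.

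Differences also varied with position and gene length. Medians of the log2 fold change by autosome ran from -0.15 on chromosome 4 to 0.19 on chromosome 19, where 27.7% of the genes were higher, against 0.00 over all genes. On chromosome 18, 25.8% were lower. Median gene body length was shortest on chromosome 19 (13126 bases) and longest on chromosomes 18 (43108) and 4 (41771). Position and gene length thus varied together, and their parts were not tested. Among 15656 running windows of 25 tested genes, the highest median was 0.59, from ILVBL to CALR3 on chromosome 19, with 16 higher and 1 lower gene and 0.37 in normoxia. The lowest was -0.69, from SYBU to HAS2-AS1 on chromosome 8, with 13 lower genes and -0.36 in normoxia. With gene bodies split by length into 5 classes of equal size, the median ran, from the shortest class to the longest, 0.12, 0.08, 0.01, -0.05 and -0.12. Lower calls made up 8.74% of the shortest class and 25.5% of the longest, and higher calls 16% and 8.09%. Both replicate pairs showed this order, from 0.12 to -0.14 in pair 1 and from 0.13 to -0.11 in pair 2. At the TSS the medians of the same classes were 0.06, 0.02, -0.04, -0.05 and -0.03. In normoxia the gene body medians fell from 0.06 in the shortest class to -0.05 in the longest, but only pair 1 carried this order (0.16 to -0.09), while in pair 2 all 5 medians lay between -0.05 and -0.02.

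**Figure D4:**
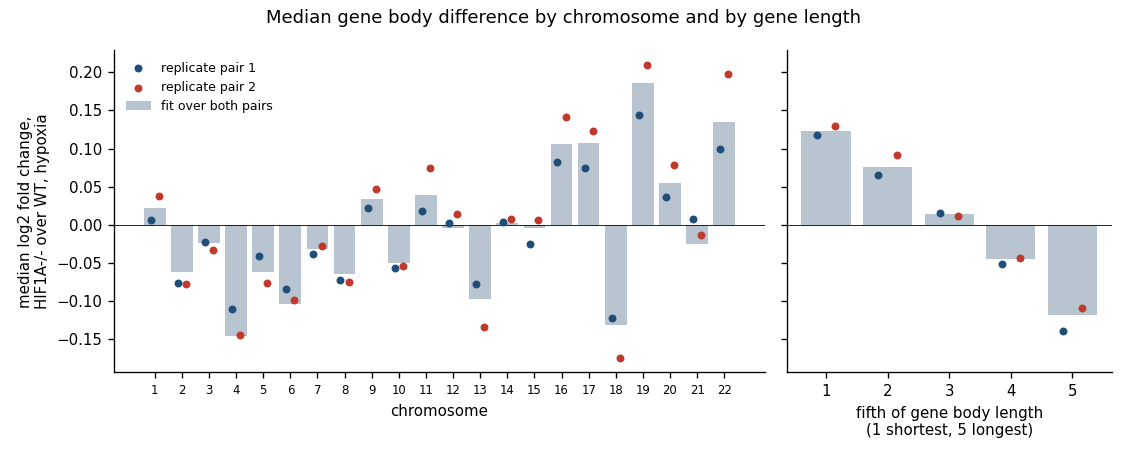
Median log2 fold change of HIF1A-/- over WT gene bodies in hypoxia by autosome (left) and by class of gene body length (right, 5 classes of equal size). Bars are medians of the fit over all genes of a class and dots are the medians of replicate pair 1 and pair 2, and chromosome 19 is highest at 0.19 while the longest class is lowest of the length classes at -0.12.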

How the data were processed

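The authors deposited whole-number read counts per gene, in 1 table for gene bodies and 1 for TSS regions, for 8 PRO-seq libraries of HCT116 cells. According to the methods reads were trimmed (BBDUK, FASTQ-MCF), placed on GRCh37 by HISAT2 2.1.0 without splicing, filtered on mapping quality with SAMtools 1.5 and counted by featureCounts of Subread 1.6.2, keeping a single TSS region and gene body per RefSeq gene. Sequencing runs were merged and replicates were not pooled. A gene with several active starts is therefore represented by 1 of them.

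From these counts, genes over 0.5 CPM in at least 2 of 8 libraries were fitted with edgeR 4.0.16 (TMM, glmQLFit and glmQLFTest) in R 4.3.3, with 4 group means and the replicate number as a block. P-values were adjusted by Benjamini-Hochberg over all genes tested, genes on the X and Y chromosomes included, and called at 10%. Only autosomal genes are reported, so X-linked members of the lists are not given. CPM values are per 1000000 reads of the table's library and carry no TMM factor. Fold changes are log2 of HIF1A-/- over WT with their SE, n = 2 libraries per group. The pausing index was tested on TSS and gene body counts in 1 fit with a term per library. Intervals and the floor of 3 reads cover counting error only, as PCR copies are not independent molecules.

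Replicate numbers come from the labels. Same-numbered libraries deviated together from their group means in all 6 pairs of groups (r = 0.484 to 0.790 across gene bodies, 0.216 to 0.519 across TSS regions). The replicates are separate preparations. The block removes a shift that same-numbered libraries share, and p-values measure the spread that remains over all 8 libraries. Without the block that shift stays in the spread. Neither fit measures variation between separately derived HIF1A-/- lines.

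The comparison, its gene lists and its tests were chosen with earlier results of these data known. Genes named are those the study names for these lines and the HIF subunits, the genes with the smallest p per direction and test among those whose libraries did not overlap (12 for gene bodies, 4 for TSS regions and pausing index, 6 for the change with oxygen), up to 4 called genes per list with up to 2 in the opposite direction, the 6 called genes with the largest fold change where one line had at most 3 reads per library, and genes bordering a named window. Other genes were named after their values were seen, mainly to show members of a list that were not called. A few genes that this rule names are not reported here. Promoter sequences were read from the GRCh37 genome sequence. The HIF1A-/- against WT test in hypoxia was tried on simulated gene body and TSS counts. The tests in normoxia, of change with oxygen and of the pausing index were not. Alternatives were DESeq2 1.42.0, no TMM, no filter, an FDR of 5%, no block, hypoxia libraries only and leaving out each library.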

Additional observations from a re-analysis of the deposited data

Results flagged for a closer look

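The test of change with oxygen, which asks whether the HIF1A-/- against WT difference was the same in hypoxia and normoxia, picked out 63 gene bodies, all more negative in hypoxia. Those named by the rule for genes had log2 values for this change as follows, with the largest first. ANKRD37 was at -4.89, MIR210HG at -3.38 and BNIP3 at -2.82. DDIT4 followed at -2.73, BNIP3L at -2.70, FAM162A at -2.65, PFKFB4 at -2.60, NDRG1 at -2.56, P4HA1 at -2.50 and GPI at -2.48. PDK1 was at -2.39, SLC2A1 at -2.08, KDM3A at -2.06, EGLN3 at -2.02 and BHLHE40 at -1.91. PLOD1 was at -1.71, PLOD2 at -1.64, LDHA at -1.62, PGAM1 at -1.56, KDM4B at -1.49 and STC2 at -1.48. The smallest were EGLN1 at -1.34, VEGFA at -1.18, KDM4C at -1.15, GBE1 at -1.14, MXI1 at -1.08, LINC00673 at -0.91 and TNIP1 at -0.75. Of these, PDK1, P4HA1, FAM162A, PFKFB4, MIR210HG, KDM3A, BNIP3 and KDM4B were also called without the replicate block. Other genes of the 63, named after their values were seen, were LOC105370526 at -5.05, ANGPTL4 at -3.06, C4orf47 at -2.63, LRP2BP at -2.37, FOSL2 at -1.29 and MOB3A at -0.97.

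In 4 genes the difference was called in opposite directions, lower in HIF1A-/- cells in hypoxia and higher in normoxia. They were named after their values were seen, and the change with oxygen itself was called in ANGPTL4, KDM4B and MOB3A but not in BHLHE41 (adjusted p = 0.298). ANGPTL4, a secreted inhibitor of lipoprotein lipase, was at -1.86 in hypoxia and 1.20 in normoxia. KDM4B was at -1.20 and 0.29, MOB3A at -0.63 and 0.34, and BHLHE41, a circadian repressor, at -0.48 and 0.66.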

How the results depend on the processing

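Directions were stable and counts were not. Each gene body called in hypoxia kept its sign under every alternative in which it was fitted. Without the replicate block, calls fell to 239 higher and 441 lower gene bodies in hypoxia, 114 and 161 in normoxia, 67 and 90 TSS regions, 67 and 34 pausing indices, 0 and 9 changes with oxygen, 43 lower and 1 higher HIF-related genes and 6 higher interferon genes. At an FDR of 5% there were 1354 higher gene bodies in hypoxia, 403 higher and 649 lower in normoxia, 735 and 676 TSS regions, 222 and 161 pausing indices and 5 higher HIF-related genes. DESeq2 gave 552 and 504 TSS regions and 119 lower changes with oxygen. Hypoxia libraries alone gave 990 and 1026 pausing indices. With 1 library left out, ranges were 547 to 2354 higher and 880 to 2442 lower gene bodies in hypoxia, 245 to 744 and 394 to 975 in normoxia, 227 to 1416 and 175 to 1271 TSS regions, 0 to 18 and 18 to 80 changes with oxygen, 43 to 149 and 23 to 121 pausing indices, 2 to 9 higher and 50 to 66 lower HIF-related genes (median -0.45 to -0.37) and 7 to 16 higher interferon genes (median 0.52 to 0.77). These fits have fewer samples, and a lone library is assumed to vary like the other groups. Replicate pair 1 alone gave a chromosome 4 median of -0.11. The SLC2A1 gene body, not called in hypoxia, ran from -0.62 to 0.10 with 1 library left out, above 0 without the second HIF1A-/- hypoxia library (0.10) or the second WT hypoxia library (0.06). Of 157 named calls, 146 remained at an FDR of 5%, 144 with DESeq2, 143 with hypoxia libraries only, 156 without TMM, 156 without the filter, 95 without the block and 115 to 148 with 1 library left out. Few reads limit the genes near or under 1 CPM, such as CA9. The cause of these shifts was not tested.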

Other observations

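Further gene families were grouped by their symbols after the values were seen, so their counts are descriptions. Of 36 proteasome subunit genes, 21 were higher in HIF1A-/- cells in hypoxia (58.3%, against 13.2% of all genes tested) and 1, PSMA1, was lower, with a median log2 fold change of 0.31. In normoxia 4 were higher and the median was 0.20. The shifts were small, and edgeR called 0 of the 36 without the replicate block. The set includes the immunoproteasome subunits PSMB8 and PSMB9, which are also in the interferon list. Of 14 keratin genes 6 were higher (42.9%) and 1 was lower (7.14%), against 13.2% and 15.1% of all genes. Medians were 0.37 in hypoxia and 0.60 in normoxia, where 6 were higher, against 3.89% of all genes. Ribosomal protein genes were mostly not called, with 4 of 69 higher and 0 lower, and mitochondrial ribosomal protein genes had 8 of 71 higher and 3 lower.

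Noncoding and uncharacterised genes were lower more often than higher in HIF1A-/- cells. Of 413 long intergenic RNA genes 88 were lower (21.3%) and 21 higher (5.08%), of 559 antisense RNA genes 117 were lower (20.9%) and 29 higher (5.19%), and of 787 genes with LOC symbols 173 were lower (22%) and 49 higher (6.23%), against 15.1% and 13.2% of all genes tested. Of 354 zinc finger genes 59 were lower (16.7%) and 31 higher (8.76%) in hypoxia. In normoxia 35 were lower and 0 higher, against 6.4% and 3.89% of all genes tested, and the difference between the oxygen levels was not tested as a group. On chromosome 19, 295 of the 961 genes that are not zinc finger genes were higher (30.7%) and 82 lower, with a median of 0.21.

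Beside HIF1A, SNAPC1, a subunit of the complex that transcribes small nuclear RNA genes, had 68.4 and 91.5 CPM in WT hypoxia, 40.2 and 43.4 in HIF1A-/- hypoxia and 40.5 to 43.0 in the 4 normoxia libraries (-0.94 in hypoxia, adjusted p = 0.00221).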
